A study of Mus musculus with 14 samples.

Results

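The 56 genes described here encode the machinery that oxidises carbon and passes electrons to oxygen inside mitochondria. They cover complex I with 6 core and 17 accessory subunits, complex II with 4, complex III with 6, cytochrome c, complex IV with 6, the tricarboxylic acid (TCA) cycle with 14 enzyme genes and pyruvate dehydrogenase with 2. They were taken from a list of 58 symbols as those with an array probe set annotated to that gene alone, among 18193 genes with such a probe set. Ndufs6 and Cox7b were left out for lack of one. Where a gene had several probe sets, the brightest over the 14 arrays was used. All 56 were among the 12172 genes bright enough to test, so no member was lost to a filter on low values.

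RNA came from dendritic cells that were grown out of BALB/c mouse bone marrow over 8 days in granulocyte-macrophage colony-stimulating factor. The cells spent 1 h with 5 µM CLIK148 (a cathepsin L inhibitor), with 5 µM CA074Me (a cathepsin B inhibitor) or with the solvent DMSO at 0.01%. They were then left alone or stimulated with CpG DNA, a Toll-like receptor 9 ligand, at 25 µg/mL or with tumour necrosis factor alpha (TNF) at 500 U/mL. The 7 groups were solvent, CLIK148, CA074Me, solvent plus CpG, CLIK148 plus CpG, solvent plus TNF and CA074Me plus TNF, each with 1 array in experiment 1 and 1 in experiment 2, which were done independently. How long the stimuli acted before RNA was taken is not given in the labels used. The values are log2 intensities summarised by RMA. Values of separate genes are not compared as levels, because each probe set has its own brightness.

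Pyruvate dehydrogenase makes acetyl-CoA from pyruvate, citrate synthase condenses it with oxaloacetate, and the dehydrogenases of the TCA cycle pass the electrons of the remaining carbon to NADH or, at complex II, to ubiquinone. Complex I oxidises NADH, complex III hands electrons from ubiquinol to cytochrome c, and complex IV reduces oxygen. Dendritic cells and macrophages that sense microbial ligands are known for raising glycolysis, for a break in the TCA cycle around isocitrate and succinate, and for making itaconate with the enzyme encoded by Acod1.

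Group differences were tested with limma, a linear model moderated over genes, with adjustment by the Benjamini-Hochberg method over all 12172 genes. A gene is called when its adjusted p is under 0.05. The planned fit used the 7 group means alone. A second fit added the experiment as a block, which removes the gap shared by the arrays of the same experiment. The replicate numbers do pair the arrays, so counts of both fits are given. The gap touched these genes: 24 of the 56 were called higher and 2 lower in experiment 2 (46.4%, against 44.6% of all tested genes).

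Several respiratory genes are read by nuclear respiratory factor 1 (NRF1), by ETS family factors such as GABPA, or by YY1, and their promoters were searched for a core word of each. The words were CGCATGCG for NRF1, CCGGAAGT for ETS and AAGATGGCG for YY1, on both strands, in RefSeq windows of GRCm38.p6 from 250 bases before to 50 after each annotated start. Of the members, 45 matched a window and 11 did not, giving 51 windows of 300 bases, and in 0 of them did 2 of the words overlap. The NRF1 word stood in 9.80% of the member windows (1.87% of all 32851 windows, 3.63% of the windows of tested genes). The YY1 word stood in 9.80% (1.40% and 2.82%), and the ETS word in 5.88% (3.89% and 7.64%). Because Ogdh has overlapping windows, the 5 windows with the NRF1 word belong to 4 genes. The following stretches carry a word in capitals and show it before a gene with a higher value after CpG, a gene called lower with the block and genes that were not called. With CpG, Ndufa8 was called lower in the fit with the block, and Cycs, Ogdh and Idh3g in neither fit. Of the windows of members called lower with the block, 23.1% held any of the words, and of the other members 26.3%. They were picked after the values were seen.
Cycs, chr6:50566570-50566659, minus strand, ending at the base before the start, NRF1 word: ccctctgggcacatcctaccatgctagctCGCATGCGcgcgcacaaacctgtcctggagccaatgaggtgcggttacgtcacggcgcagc
Ndufa8, chr2:36049339-36049428, minus strand, ending at the base before the start, NRF1 word: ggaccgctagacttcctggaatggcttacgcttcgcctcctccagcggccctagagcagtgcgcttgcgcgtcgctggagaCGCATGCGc
Ogdh, chr11:6292468-6292557, plus strand, ending at the base before the start, NRF1 word: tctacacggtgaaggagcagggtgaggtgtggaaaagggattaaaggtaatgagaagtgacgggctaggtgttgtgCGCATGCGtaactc
Idh3g, chrX:73786963-73787052, minus strand, upstream of the start, YY1 word: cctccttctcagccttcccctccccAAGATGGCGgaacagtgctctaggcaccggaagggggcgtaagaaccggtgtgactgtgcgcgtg

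The cultures were checked against lists of cell markers. All 12 dendritic cell markers were bright enough to test. Their summed log2 value was 144.01 to 145.98 after solvent, 143.86 to 144.80 after CLIK148 and 144.06 to 145.21 after CA074Me. It was 141.03 to 142.34 after solvent plus CpG, 139.97 to 140.76 after CLIK148 plus CpG, 141.11 to 142.45 after solvent plus TNF and 141.18 to 142.28 after CA074Me plus TNF. The sums were lower after the stimuli through Clec10a (-1.60 with CpG, -1.26 with TNF), Mgl2 (-1.36 and -1.28) and Cd209a (-1.48 and -1.31), while 7 of the 12 markers lay above 0 with CpG (median 0.0094) and 4 with TNF (median -0.066). Of the dendritic cell markers, the planned limma fit called 2 lower with CpG and 1 with TNF (0.854% and 0.0329% of all tested genes). With the block 3 were lower and 1 higher with CpG, and 2 were lower with TNF. Of 10 macrophage markers, 9 were tested, with sums of 106.62 to 108.80 over the unstimulated arrays and 103.28 to 104.99 over the stimulated ones. With CpG, 6 of the 9 lay below 0, and with TNF 8. With the block 4 of the 9 were called lower with CpG and 0 with TNF, where 13.7% and 1.97% of all tested genes were. The planned fit called 0 of them in either comparison. Of 10 granulocyte markers, 8 were tested, with sums of 98.98 to 99.11 after solvent, 99.56 to 99.59 after solvent plus CpG and 98.96 to 99.30 after solvent plus TNF. The mast cell and basophil markers Cpa3, Mcpt8 and Fcer1a lay above 0 with CpG (0.11 to 0.26, above 0 in experiment 1 alone) and with TNF (0.25 to 0.39, in both experiments). The 6 lymphocyte and plasmacytoid markers tested lay between -0.31 and 0.17 with CpG and between -0.082 and 0.22 with TNF. In these last 3 lists 0 markers were called in either limma fit of either comparison, with 0 at an unadjusted p under 0.05. Cd3g, Cd79a, Cd8b1, Hba-a1, Alas2, Col1a1, Col3a1 and Col1a2 were too dim to test. The part of any of these markers in the results was not tested. In RNA of whole cultures, fewer cells of a type and less RNA per cell cannot be told apart.

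The first comparison asks how CpG altered the expression of these genes in cells that had only received the solvent. Fh1 (fumarase), the 3 subunit genes of the NAD-linked isocitrate dehydrogenase, Idh2, Pdha1, Suclg1 and a set of complex I subunits had the lowest values after CpG, while the medians of complexes III and IV lay near 0 and Cycs and Uqcrfs1 had positive differences. The median difference over the 56 genes was -0.13 log2, CpG minus solvent, against -0.055 for all tested genes. Idh3a fell in the planned fit, the sole member called there (1 of 56, 1.79%; 0.854% of all tested genes were called lower and 1.07% higher). With the experiment as a block 14 members fell and 0 rose (25.0% lower; 13.7% of all tested genes were called lower and 6.19% higher). After another scaling of the arrays, cyclic loess, the block called 1252 of all genes lower and 1009 higher in place of 1667 and 753. It then called 15 members lower. With the probe sets of each gene averaged, the block called 11 members lower (13.2% of all tested genes), of which 10 were among the 14. Idh3b, Ndufa5, Ndufb9 and Pdha1 were then not called, and Sdhb was. With the block and 1 array left out, Idh3a alone was called without the experiment 1 array of solvent or of solvent plus CpG (1.45% and 2.29% of all tested genes lower), and 6 members without the experiment 2 array of solvent (5.33%). With any CLIK148, CA074Me plus TNF or solvent plus TNF array left out, 8 or 9 were called (9.69% to 10.4%). Without the solvent plus CpG array of experiment 2, 25 were called, 22 lower and 3 higher, where 28.8% of all tested genes were called lower. The counts over all genes thus moved with those of the members. Without adjustment, 12 members had a p under 0.05 in the planned limma fit (21.4%; 18.3% of all tested genes) and 23 with the block (41.1%; 37.4%). Both shares lie near those of all tested genes.

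**Figure D1:**
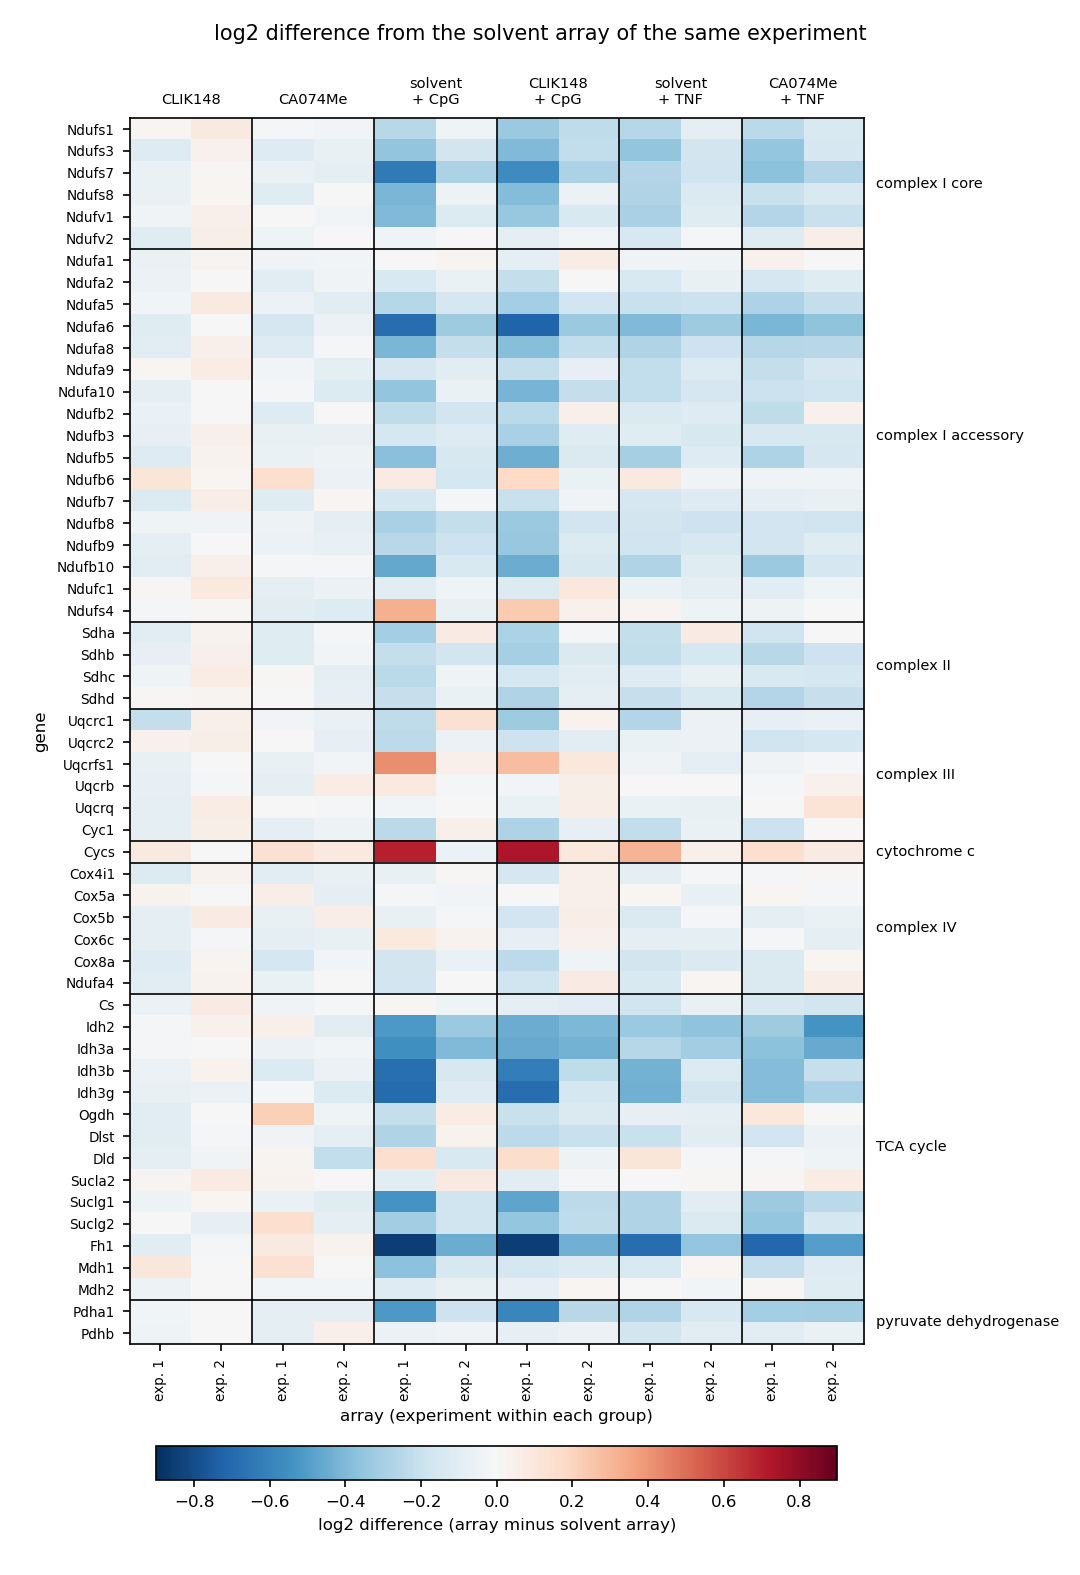
Colours give, for each of the 56 genes (rows, grouped by role) and each of the 12 arrays outside the solvent group (columns), the log2 value minus that of the solvent array of the same experiment. Blue fills most rows of complex I and the isocitrate dehydrogenase, Suclg1, Fh1 and Pdha1 rows in the 4 groups that received CpG or TNF, more deeply in experiment 1 after CpG, and the inhibitor columns stay pale.

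Of the 56 differences, 49 lay below 0. The difference was below 0 in both experiments for 39 members (69.6%, against 41.7% of all tested genes). Both CpG arrays lay below both solvent arrays for 32 members (57.1%; 26.5% of all tested genes), and above them for 1 member, Cox6c (16.6% of all tested genes). Experiment 1 gave the larger differences: the median was -0.23 in experiment 1 and -0.062 in experiment 2 (all tested genes -0.11 and -0.014). The absolute difference was larger in experiment 1 for 52 of the 56 members (92.9%) and for 74.3% of all tested genes. The solvent plus CpG arrays also differed most from each other, with a median SD over members of 0.15 log2 against 0.048 for the solvent arrays.

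The isocitrate dehydrogenases catalyse the oxidative decarboxylation of isocitrate. Idh3a, Idh3b and Idh3g encode the NAD-linked enzyme of the cycle, Idh3a its catalytic subunit, and Idh2 encodes the mitochondrial NADP-linked enzyme. Idh3a read 10.80 and 10.87 log2 in experiments 1 and 2 after solvent, 10.79 and 10.87 after CLIK148, 10.75 and 10.84 after CA074Me, 10.25 and 10.47 after solvent plus CpG, 10.35 and 10.45 after CLIK148 plus CpG, 10.55 and 10.56 after solvent plus TNF, and 10.44 and 10.42 after CA074Me plus TNF. Every stimulated array of Idh3a lay below every unstimulated array. With CpG it fell by 0.48 log2, or 28.1% (SE 0.085, n = 2 arrays per group, 95% interval -0.67 to -0.28, limma adjusted p = 0.033, block adjusted p = 0.0037). The call was lost on leaving out any of 11 of the 14 arrays, with adjusted p up to 0.21. It was kept without the solvent plus CpG array of experiment 2 and without either CLIK148 plus CpG array. It was also lost on averaging the probe sets of Idh3a (-0.23, adjusted p = 0.086), since the other 3 probe sets of the gene, all dimmer, gave -0.28, -0.18 and 0.020.

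Idh2 read 9.97 and 10.20 after solvent, 9.95 and 10.24 after CLIK148, 10.02 and 10.10 after CA074Me, 9.45 and 9.87 after solvent plus CpG, 9.52 and 9.80 after CLIK148 plus CpG, 9.63 and 9.84 after solvent plus TNF, and 9.65 and 9.67 after CA074Me plus TNF. Its stimulated and unstimulated arrays did not overlap either. The CpG difference was -0.43 (SE 0.17, adjusted p = 0.22, block adjusted p = 0.015), and a dimmer probe set gave -0.16. Idh3b differed by -0.41 (adjusted p = 0.17, block adjusted p = 0.046), with -0.68 in experiment 1 and -0.14 in experiment 2. Idh3g had a difference of the same size, -0.41, but with -0.69 and -0.12 in the 2 experiments it was not called (block adjusted p = 0.11). The median of the 4 isocitrate dehydrogenase genes was -0.42.

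Fumarase, encoded by Fh1, hydrates fumarate to malate. Fh1 read 12.17 and 12.31 after solvent, 12.07 and 12.30 after CLIK148, 12.25 and 12.34 after CA074Me, 11.32 and 11.86 after solvent plus CpG, 11.32 and 11.87 after CLIK148 plus CpG, 11.48 and 11.96 after solvent plus TNF, and 11.46 and 11.81 after CA074Me plus TNF. The 8 stimulated arrays were all below the 6 unstimulated ones, and in every group, stimulated or not, the experiment 1 array was the lower. Its CpG difference of -0.65 was the largest among the members, a reduction of 36.1% (SE 0.25, 95% interval -1.20 to -0.089, adjusted p = 0.21, block adjusted p = 0.010). Suclg1, the shared alpha subunit of the succinyl-CoA synthetases, differed by -0.36 (block adjusted p = 0.032). Its partner subunits stood at -0.25 for Suclg2 and -0.0081 for Sucla2, neither of them called.

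The other cycle enzymes differed less. Cs, citrate synthase, which opens the cycle, read 12.64 and 12.70 after solvent and 12.66 and 12.66 after solvent plus CpG, a difference of -0.014 (95% interval -0.21 to 0.18). The solvent and CpG arrays of Cs overlapped, and 2 other bright probe sets of the gene gave 0.23 and 0.047. Ogdh, Dlst and Dld, the 3 components of the oxoglutarate dehydrogenase complex, had differences of -0.074, -0.12 and 0.0086. Mdh2, the mitochondrial malate dehydrogenase, differed by -0.092, and Mdh1, which encodes the cytosolic enzyme, by -0.26 (block adjusted p = 0.074). Of the 14 TCA genes, 5 were called lower with the block (Fh1, Idh3a, Idh2, Idh3b and Suclg1). The median of all 14 was -0.25.

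Pdha1, the catalytic alpha subunit of pyruvate dehydrogenase, read 11.29 and 11.29 after solvent, 11.27 and 11.28 after CLIK148, 11.20 and 11.20 after CA074Me, 10.77 and 11.10 after solvent plus CpG, 10.70 and 11.04 after CLIK148 plus CpG, 11.01 and 11.14 after solvent plus TNF, and 10.98 and 10.97 after CA074Me plus TNF. All stimulated arrays lay below all unstimulated ones. The CpG difference was -0.35 (adjusted p = 0.19, block adjusted p = 0.042). A second bright probe set gave -0.23, and with averaged probe sets the block did not call Pdha1. Pdhb, the beta subunit of the same enzyme, differed by -0.042 (block adjusted p = 0.62).

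**Figure D2:**
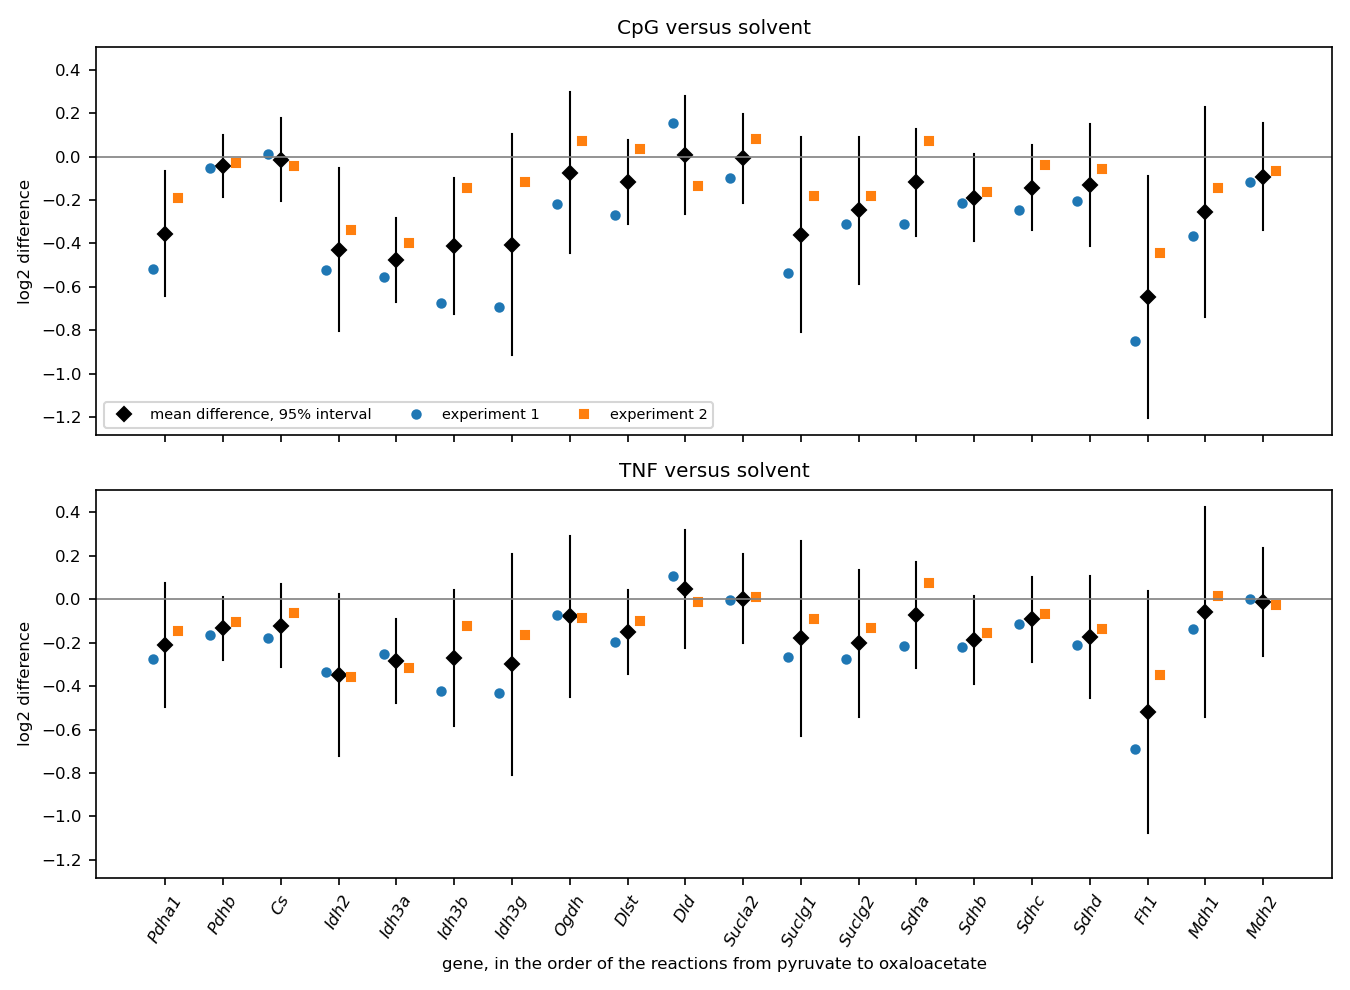
Log2 difference of each pyruvate dehydrogenase, TCA cycle and complex II gene, in the order of the reactions, for CpG (top) and TNF (bottom) against solvent; diamonds are group differences with 95% intervals from the planned limma fit, and circles and squares the differences within experiments 1 and 2. The lowest diamonds are those of the isocitrate dehydrogenases and Fh1 (-0.41 to -0.65 with CpG), while Dld and Sucla2 lie near 0 in both panels and Cs near 0 with CpG and at -0.12 with TNF.

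Complex I is the entry point of NADH electrons. Its core subunits bind the flavin, the iron-sulfur clusters and the quinone, and the accessory subunits surround them. All 6 core subunit genes were lower with CpG in both experiments, with a median of -0.24, and 2 were called with the block. Ndufs7, an iron-sulfur subunit next to the quinone site, read 12.15 and 12.20 after solvent, 12.09 and 12.21 after CLIK148, 12.09 and 12.12 after CA074Me, 11.51 and 11.92 after solvent plus CpG, 11.58 and 11.92 after CLIK148 plus CpG, 11.88 and 12.03 after solvent plus TNF, and 11.78 and 11.94 after CA074Me plus TNF. Again the stimulated arrays were all the lower ones. The CpG difference of Ndufs7 was -0.46 (SE 0.15, adjusted p = 0.16, block adjusted p = 0.014). A second probe set of the gene gave -0.41. Ndufs3, a core subunit of the arm that projects into the matrix, differed by -0.26 (block adjusted p = 0.031). Ndufv1, which binds the flavin that accepts electrons from NADH, differed by -0.26 without a call (block adjusted p = 0.054), and Ndufs1, the largest iron-sulfur subunit, by -0.14 (block adjusted p = 0.16).

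Among the 17 accessory subunit genes, 15 were below 0, 6 were called lower with the block and the median was -0.20. Ndufa6 read 12.35 and 12.52 after solvent, 12.24 and 12.52 after CLIK148, 12.20 and 12.47 after CA074Me, 11.66 and 12.20 after solvent plus CpG, 11.63 and 12.18 after CLIK148 plus CpG, 11.95 and 12.20 after solvent plus TNF, and 11.94 and 12.16 after CA074Me plus TNF. The solvent plus CpG arrays of Ndufa6 were both below the solvent arrays. The difference was -0.50 (SE 0.23, adjusted p = 0.29, block adjusted p = 0.013). Ndufa8, whose promoter word is printed above, differed by -0.31 (block adjusted p = 0.014), Ndufb10 by -0.30 (0.046) and Ndufb8 by -0.25 (0.029). Ndufb9 (-0.22) and Ndufa5 (-0.20) complete the 14 called members. Ndufs4, which stabilises the part of the complex that oxidises NADH, had the third highest difference of all members at 0.13, from 0.32 in experiment 1 and -0.064 in experiment 2. Its 2 dimmer probe sets that passed the filter gave -0.070 and 0.034, with means of 7.81 and 9.33 log2 against 11.00 for the kept one.

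Complex II is the succinate dehydrogenase, shared by the cycle and the electron transport chain. Its 4 genes lay between -0.19 and -0.12 with CpG, and 0 were called. Sdha, the flavoprotein that oxidises succinate, read 12.18 and 12.07 after solvent and 11.87 and 12.14 after solvent plus CpG, so the groups overlapped. Sdhb, the iron-sulfur subunit, read 12.47 and 12.29 after solvent and 12.25 and 12.12 after CpG, with a difference of -0.19 (block adjusted p = 0.052). Sdhc and Sdhd, the membrane anchors, differed by -0.14 and -0.13.

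Complexes III and IV and cytochrome c gave 0 calls among 13 genes in either fit. The complex III median was -0.027. Uqcrfs1, the Rieske iron-sulfur protein, read 12.32 and 12.26 after solvent and 12.74 and 12.31 after solvent plus CpG, a difference of 0.23 (block adjusted p = 0.14). Cyc1, the cytochrome subunit that delivers electrons to cytochrome c, differed by -0.098. The complex IV median was -0.031, and its genes lay between -0.11 for Cox8a and 0.061 for Cox6c. Cox4i1, a nuclear subunit that surrounds the catalytic core, read 14.06 and 13.96 after solvent and 14.00 and 13.97 after CpG. Ndufa4, a subunit long assigned to complex I and now placed in complex IV, differed by -0.088.

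Cycs encodes cytochrome c, the soluble electron carrier that also triggers apoptosis when it leaves the mitochondrion. Cycs read 13.05 and 13.22 after solvent, 13.14 and 13.22 after CLIK148, 13.19 and 13.31 after CA074Me, 13.76 and 13.16 after solvent plus CpG, 13.78 and 13.31 after CLIK148 plus CpG, 13.36 and 13.26 after solvent plus TNF, and 13.20 and 13.29 after CA074Me plus TNF. The 2 CpG arrays of experiment 1 were the highest of the 14, and the solvent plus CpG array of experiment 2 was below its own solvent array. The difference of 0.32, from 0.70 and -0.055 in the 2 experiments, was the highest of the members and was not called (adjusted p = 0.42, block adjusted p = 0.23). The other 2 bright probe sets of Cycs gave 0.41 and 0.22. With the block, 8 of 23 complex I genes, 5 of 14 TCA genes and 1 of 2 pyruvate dehydrogenase genes were called lower with CpG. Among the 17 genes of complexes II to IV and cytochrome c, 0 were. Subunit genes outside the member list gave 0 of 9 for complex I and 1 of 8 for complexes III and IV (12.5%). Of all tested genes, 13.7% were called lower in that fit. With the probe sets of each gene averaged, the block also called Sdhb lower. Brighter members tended to have smaller absolute differences. Spearman's rank correlation of mean log2 value with absolute difference was -0.34 with CpG and -0.39 with TNF. Across all tested genes it was 0.27 and 0.20. On the solvent array of experiment 1 the median brightness was 13.69 log2 for complex IV genes, 11.65 for TCA genes and 11.48 for pyruvate dehydrogenase genes. It was 12.13 for the complex I core, 12.27 for the accessory subunits, 12.23 for complex II and 12.33 for complex III. Whether the roles differ, and whether brightness has a part in their differences, was not tested.

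**Figure D3:**
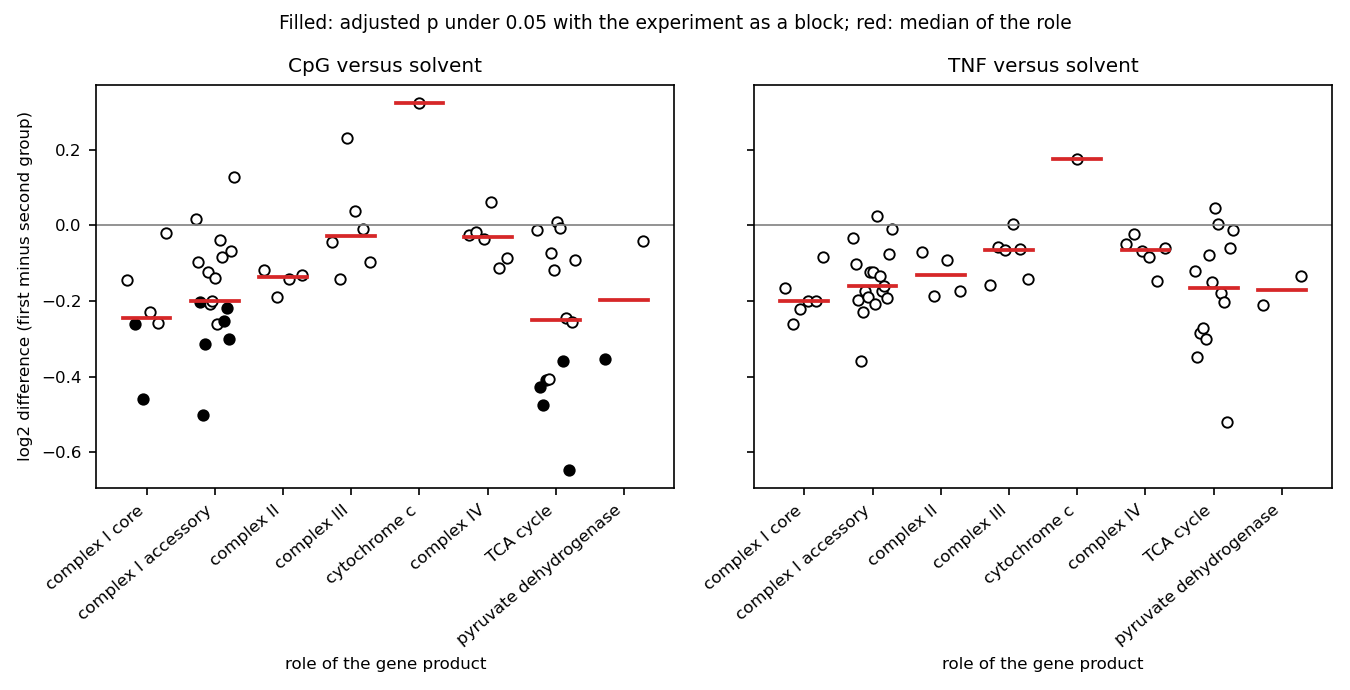
Each circle is the log2 difference of a gene from solvent after CpG (left) or TNF (right), arranged by role on the x axis; red lines are role medians and filled circles have an adjusted p under 0.05 in the limma fit with the experiment as a block. Filled circles with CpG fall in complex I, the TCA cycle and pyruvate dehydrogenase, and the TNF panel has none.

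The second comparison asks the same of TNF. It shares the solvent arrays with the CpG comparison, so the values below are set side by side and not counted as a repeat. The median was -0.14 (all tested genes -0.051), or -0.074 after cyclic loess (all tested genes -0.00059), with 51 of 56 differences below 0, and 0 members were called in either fit (0.115% of all tested genes were called in the planned fit and 3.11% with the block). Without adjustment, 1 member had a p under 0.05 in the planned limma fit (1.79%; 7.22% of all tested genes) and 18 with the block (32.1%; 20.5%). The smallest block adjusted p was 0.060, for Fh1. The difference was below 0 in both experiments for 45 members (80.4%; 48.4% of all tested genes), and both TNF arrays lay below both solvent arrays for 36 (64.3%; 26.2%).

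With TNF the largest difference was again that of Fh1 (-0.52, 95% interval -1.08 to 0.038). Ndufa6 followed at -0.36, and Idh2 at -0.35, with -0.34 and -0.36 in the 2 experiments. Idh3a differed by -0.28 (adjusted p = 0.41, block adjusted p = 0.061), from -0.25 and -0.31. By role, the medians were -0.20 for the complex I core, -0.16 for its accessory subunits, -0.17 for the TCA cycle, -0.17 for pyruvate dehydrogenase, -0.13 for complex II, -0.064 for complex III and -0.065 for complex IV. Cycs had the highest difference, 0.17, and its TNF arrays were both above its solvent arrays, but its other 2 bright probe sets gave 0.025 and -0.0093. The median was -0.17 in experiment 1 and -0.097 in experiment 2. With the block, 240 of all genes were called lower and 139 higher, and 208 and 199 after cyclic loess.

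Set against each other, CpG and TNF gave 0 called members in either fit (0.00822% of all tested genes were called in the planned fit and 0.435% with the block). Of unadjusted p under 0.05, there were 0 in the planned limma fit (6.35% of all tested genes) and 4 with the block (7.14%; 15.7%), shares below those of all genes. The median difference, CpG minus TNF, was -0.013. The most negative values were those of Ndufs7 (-0.24, 95% interval -0.58 to 0.097), Mdh1 (-0.20) and Idh3a (-0.19), and the most positive those of Uqcrfs1 (0.30, 95% interval -0.00085 to 0.60), Cycs (0.15) and Cox6c (0.15). The value of Mdh1 rests on its brightest probe set (-0.26 with CpG, -0.061 with TNF), since the other 2 bright ones gave -0.34 and -0.19 with CpG and -0.33 and -0.13 with TNF. The median 95% interval reached 0.25 log2 to either side of a difference, or 0.16 with the block.

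**Figure D4:**
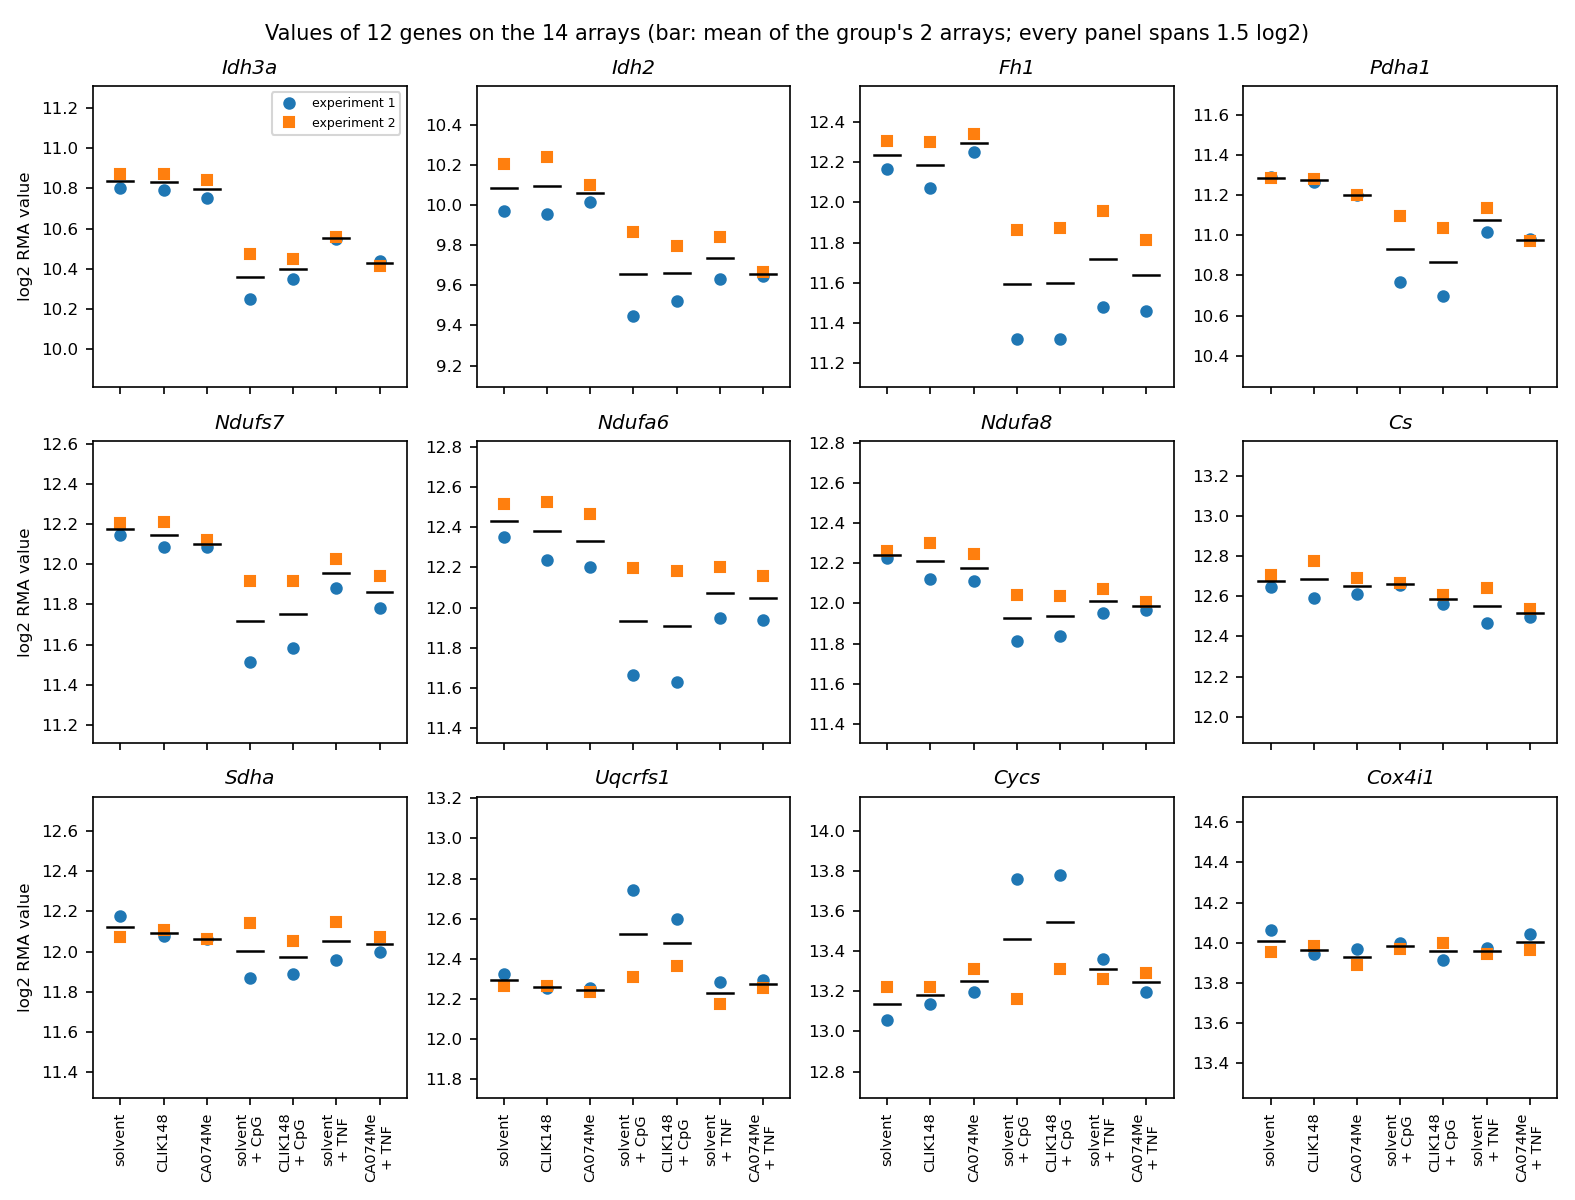
Log2 RMA values of 12 genes on the 14 arrays by group, circles for experiment 1, squares for experiment 2 and bars for the mean of the group's 2 arrays; every panel spans the same range of log2. In the Idh3a, Idh2, Fh1, Pdha1, Ndufs7 and Ndufa8 panels the 4 stimulated groups lie below the 3 unstimulated ones, Cox4i1 is flat, and Cycs and Uqcrfs1 are high on the experiment 1 CpG arrays.

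The inhibitors were also compared without a stimulus. The differences of CLIK148 from solvent ranged from -0.085 (Uqcrc1) to 0.064 (Ndufb6), with a median of -0.023. CA074Me gave -0.11 (Ndufs4) to 0.12 (Cycs), with a median of -0.050. With CA074Me 49 of the 56 differences lay below 0, among them 22 of 23 in complex I, and 37 were below 0 in both experiments (66.1%; 37.8% of all tested genes). After cyclic loess the median was -0.010 and 31 lay below 0. Between the inhibitors, at the same dose and time, the differences CLIK148 minus CA074Me ran from -0.14 (Ogdh) to 0.11 (Ndufc1), with a median of 0.032. In each of these 3 limma comparisons 0 members were called in either fit (0.0% of all tested genes), and 0 had an unadjusted p under 0.05 in either. The intervals bound rather than exclude a difference: for Fh1, CLIK148 minus CA074Me was -0.11 with a 95% interval of -0.67 to 0.45. Cs read 12.64 and 12.70 after solvent, 12.59 and 12.78 after CLIK148, and 12.61 and 12.69 after CA074Me. Of all tested genes, 0.0986% with CLIK148 and 0.542% with CA074Me had an unadjusted p under 0.05 in the planned fit, so these tests were cautious.

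Under a stimulus the inhibitors were likewise without a call. CLIK148 plus CpG minus solvent plus CpG had a median of -0.019 and ran from -0.14 (Ndufs1) to 0.12 (Mdh1). CA074Me plus TNF minus solvent plus TNF had a median of -0.014 and ran from -0.13 (Idh3a) to 0.13 (Ogdh). In both comparisons 0 members were called with or without the block, against 0.0% of all tested genes in the planned limma fit and, for CA074Me plus TNF with the block, 0.00822%. No member had an unadjusted p under 0.05 in either limma fit. The test of the interaction, that is whether the CpG difference was altered by CLIK148 or the TNF difference by CA074Me, called 0 members in either fit (0.0% of all tested genes), with 0 at an unadjusted p under 0.05. Its most extreme estimates were -0.18 for Ndufs1 (95% interval -0.46 to 0.089) and 0.13 for Ndufb2 with CLIK148 and CpG, and -0.18 for Cycs and 0.18 for Cox8a with CA074Me and TNF. The median interval of an interaction reached 0.35 log2 to either side.

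CpG was also given after CLIK148, and these 4 arrays are none of those in the first comparison, though they come from the same 2 experiments and share its estimate of spread. The median of CpG after CLIK148, against CLIK148 alone, was -0.16 (all tested genes -0.063), or -0.085 after cyclic loess (all tested genes 0.0094). In the planned fit 0 members were called (0.403% of all tested genes were called lower and 0.411% higher), with 11 at an unadjusted p under 0.05 (19.6%; 16.6% of all tested genes) and Idh3a lowest at an adjusted p of 0.060. With the block 14 were called lower and 0 higher (25.0%; 13.0% of all tested genes were called lower and 4.03% higher), and 24 had an unadjusted p under 0.05 (42.9%; 36.1%). Of all genes the block called 1586 lower and 491 higher, and 989 and 731 after cyclic loess. The block called 0 members without the experiment 1 array of CLIK148 or of CLIK148 plus CpG (0.698% and 1.17% of all tested genes lower), 1 without the experiment 2 array of CLIK148 (1.95%), and 9 without either solvent plus TNF array (9.22%). Of these 14, 12 were also among the 14 called with the block after solvent, which is 85.7% of each list. The same overlap was not counted over all tested genes, so this share has no background to be set against. Ndufb10 and Ndufb9 were on the first list alone, and Ndufs1 and Sdhb on the second alone.

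The leading values after CLIK148 were -0.59 for Fh1 (block adjusted p = 0.016), -0.47 for Ndufa6 (0.018), -0.44 for Idh2 (0.017), -0.43 for Idh3a (0.0066) and -0.42 for Idh3b (0.048). Ndufs1 read 10.75 and 10.65 after CLIK148 and 10.39 and 10.34 after CLIK148 plus CpG, with no overlap. Its difference was -0.33 there, against -0.14 after solvent. Cycs (0.37), Uqcrfs1 (0.22) and Ndufs4 (0.14) were again the 3 highest. Over the 56 genes the difference was below 0 in both comparisons for 47, above 0 in both for 7 and of opposite sign for 2. Pearson's r between the 2 sets of differences was 0.957 across members and 0.970 across all tested genes, a description over genes, which are not independent replicates.

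**Figure D5:**
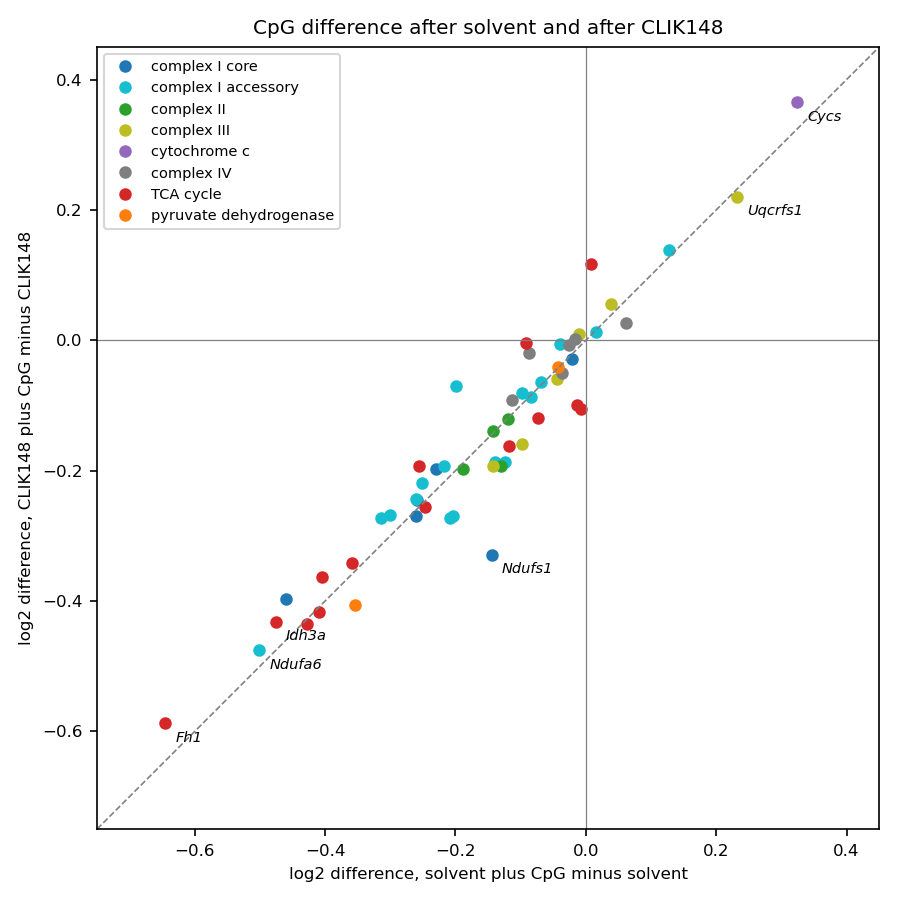
Log2 difference with CpG after solvent (x axis) against that after CLIK148 (y axis), a point per gene coloured by role, with the line of equality dashed. The points follow the line from Fh1 at the lower left to Cycs at the upper right, and Ndufs1 lies furthest below it.

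TNF after CA074Me, against CA074Me alone, likewise used 4 arrays that the TNF comparison after solvent did not. Fh1 (-0.66, block adjusted p = 0.012), Idh2 (-0.40, 0.026) and Idh3a (-0.37, 0.011) fell with the block. That is 3 of 56 or 5.36%, where 6.16% of all tested genes were called lower, so the count does not stand out from the background. Without the experiment 1 array of CA074Me or the experiment 2 array of CA074Me plus TNF, 0 were called (0.797% and 0.83% of all tested genes lower). In the planned limma fit 0 were called (0.419% of all tested genes were called lower), with 3 at an unadjusted p under 0.05 (5.36%; 12.1% of all tested genes). The median was -0.084 (all tested genes -0.019), and the role medians were -0.32 for the isocitrate dehydrogenases, -0.21 for the TCA cycle, -0.12 for complex I, -0.13 for complex II, -0.00054 for complex III and 0.019 for complex IV. Across members, r with the differences of TNF after solvent was 0.832, and across all tested genes 0.901.

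Taking all groups, 15 members had each of the 8 stimulated arrays below each of the 6 unstimulated ones (26.8%; 8.1% of all tested genes), and 0 had them all above (3.46% of all tested genes). They were Ndufs1, Ndufs7, Ndufv1, Ndufa5, Ndufa8, Ndufb5, Ndufb8, Ndufb9, Ndufb10, Sdhb, Idh2, Idh3a, Idh3b, Fh1 and Pdha1. This split was added after the values were seen, and after scaling by cyclic loess it held for 17 members (30.4%; 6.40% of all tested genes). Complexes III and IV and cytochrome c contributed 0 genes.

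Genes that act beside the members were examined from lists of 129 further symbols, of which 115 were tested. With CpG, 4 of the 115 were called higher and 16 lower with the block (3.48% and 13.9%, where 6.19% and 13.7% of all tested genes were), so these shares do not stand out from the background. In the planned fit Acad9 was the sole call (1 of 115, where 1.07% of all tested genes were called higher). Acad9, needed to assemble complex I, read 9.63 and 9.85 after solvent and 10.49 and 10.42 after solvent plus CpG, with no overlap, and rose by 0.72 (SE 0.13, adjusted p = 0.034, block adjusted p = 0.0049). That call was lost on leaving out any of 9 of the 14 arrays. The 36 tested assembly factors had a median of -0.16, with 11 called lower with the block (30.6%) and Acad9 the 1 called higher. Nubpl, which delivers iron-sulfur clusters to complex I, differed by -0.54 (block adjusted p = 0.0062), Surf1, a complex IV assembly factor, by -0.48 (0.030), Sco2, which supplies copper to complex IV, by -0.45 (0.020) and Bcs1l, which inserts the Rieske protein, by -0.45 (0.012).

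Among 14 regulators of mitochondrial genes, 3 fell with the block (21.4%, where 13.7% of all tested genes were called lower). They were Ppargc1b, a coactivator of respiratory genes (-0.84, block adjusted p = 0.023), Polg2, a subunit of the mitochondrial DNA polymerase (-0.71, 0.017) and Twnk, the mitochondrial DNA helicase (-0.35, 0.040). Of 10 carriers, 2 were called higher with the block (20%, where 6.19% of all tested genes were). Slc25a1, which exports citrate, rose by 0.36 (block adjusted p = 0.011) and Slc25a10, which exchanges dicarboxylates, by 0.42 (0.017). Slc25a10 was the list gene called in the planned fit for TNF after CA074Me, at 0.72 (adjusted p = 0.010). It was lost there without any of the 4 arrays compared, with adjusted p from 0.071 to 0.11.

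ATP synthase, 16 genes, had a median of -0.11 with CpG and 0 calls in either limma fit. Of the 16, 4 had an unadjusted p under 0.05 with the block and 0 without. Of all tested genes 37.4% and 18.3% did, so these p shares of ATP synthase lie below the background. By sign, 14 of the 16 lay below 0, and 11 were below 0 in both experiments (68.8%; 41.7% of all tested genes). Both CpG arrays lay below both solvent arrays for 10 (62.5%; 26.5% of all tested genes). Of 10 other TCA and pyruvate enzymes, Me1, the cytosolic malic enzyme, was called higher (0.38, block adjusted p = 0.030) and Glud1, which makes oxoglutarate from glutamate, lower (-0.28, 0.039). That is 10% in each direction, where 6.19% of all tested genes were called higher and 13.7% lower. Acod1, which makes itaconate from aconitate, read 12.46 and 12.42 after solvent and 14.78 and 13.01 after solvent plus CpG. The groups did not overlap, yet the difference of 1.45 came from 2.32 and 0.59 in the 2 experiments and was not called (adjusted p = 0.26, block adjusted p = 0.062). AA467197, which encodes a paralogue of the complex IV subunit Ndufa4, differed by 0.60, the mitochondrial superoxide dismutase gene Sod2 by 0.73 and the pyruvate dehydrogenase kinase gene Pdk1 by -0.41, all without a call.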

How the data were processed

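RNA of bone marrow dendritic cells was measured on 14 Affymetrix arrays, 2 in each of 7 groups. The values deposited by the authors are log2 intensities made with RMA in R 3.0.1, per the submitters' processing notes. Its further settings are not given in those notes. Array medians lay between 7.48 and 7.54 log2, and the number of arrays limits the precision. Of 45101 probe sets, 34945 were annotated to a single gene, and the brightest was kept per gene. Genes above the overall median of 7.52 log2 on at least 2 arrays were tested.

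Groups were fitted together with limma 3.58.1 in R 4.3.3, with Benjamini-Hochberg adjustment of its p-values across 12172 genes. The planned model held 7 group means without the replicate block (7 residual degrees of freedom). The alternative added the replicate number, which the labels use for the 2 independent experiments (6 residual degrees of freedom). Deviations of same-numbered arrays correlated at 0.455 to 0.935 over all 21 pairs of groups, so the numbers pair the arrays. The fit was tested on simulated data. Other alternatives were scaling by cyclic loess, averaging the probe sets of each gene, array weights, a fit of the compared groups alone and leaving out each array. Of 57 other bright probe sets of 36 members, 47 had the sign of the kept one with CpG and 10 the opposite. The members, the gene lists and the rule for named genes were chosen with earlier results of these data known. That rule named up to 12 called members per comparison and direction by size, the extremes of each comparison and role, and the enzymes and subunits of key steps. With CpG after solvent, Ndufb9 and Ndufa5 come after the first 12 called, and Ndufb5 was not called, so these were named after their values were seen.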

Additional observations from a re-analysis of the deposited data

How the results depend on the processing

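The replicate block changed the counts of called members most: 14 with CpG after solvent, 14 with CpG after CLIK148 and 3 with TNF after CA074Me, against 1, 0 and 0 without it. It changed no call in the other comparisons. The counts in the rest of this paragraph are from fits without the block. With CpG after solvent, 0 members were called with the probe sets of each gene averaged, with array weights and with only the groups compared, and 0 to 6 on leaving out 1 array. With array weights 1 was called with CpG after CLIK148 and 1 with TNF after CA074Me. Cyclic loess gave 1 with TNF after CA074Me. Leaving out 1 array gave 0 to 1 in both.

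With the block, leaving out 1 array gave 1 to 25 calls with CpG after solvent (8 without either array of CA074Me plus TNF or solvent plus TNF, 9 without either of CLIK148), 0 to 19 with CpG after CLIK148 (9 without either array of solvent plus TNF) and 0 to 3 with TNF after CA074Me. The lowest count with CpG came without the experiment 1 array of solvent or of solvent plus CpG, and the highest without the solvent plus CpG array of experiment 2.

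Cyclic loess moved the members' median to -0.074 with TNF, -0.052 for CpG minus TNF, -0.010 with CA074Me, -0.0077 with CLIK148, 0.0067 for CLIK148 minus CA074Me, -0.028 for CA074Me under TNF, 0.033 for the CLIK148 by CpG interaction, 0.025 for CLIK148 under CpG, -0.085 for CpG after CLIK148 and -0.014 for the CA074Me by TNF interaction. Averaging the probe sets of each gene moved it to -0.034 with CA074Me and -0.11 for CpG after CLIK148. Without the block, leaving out 1 array gave medians of -0.21 to -0.038 with CpG, -0.16 to -0.11 with TNF, -0.091 to 0.069 for CpG minus TNF, -0.23 to -0.062 for CpG after CLIK148 and -0.13 to -0.051 for TNF after CA074Me. It gave -0.072 to 0.039 with CLIK148, -0.058 to -0.025 with CA074Me, -0.024 to 0.073 for CLIK148 minus CA074Me, -0.11 to 0.080 for CLIK148 under CpG and -0.054 to 0.046 for CA074Me under TNF. With the block, leaving out 1 array gave medians of -0.18 to -0.088 with CpG, -0.18 to -0.11 for CpG after CLIK148 and -0.14 to -0.063 for TNF after CA074Me. Without it, the interactions gave -0.090 to 0.086 and -0.014 to 0.095. The cause of these shifts was not tested. With 2 arrays a group, an interval that includes 0 leaves differences of the size it spans undecided.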
